A study of Mus musculus with 6 samples.

Results

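The ErbB family of growth factor signals was followed here through 10 genes of the deposited count table, taken by symbol: the receptor genes Egfr, Erbb2, Erbb3 and Erbb4, the ligand genes Nrg1, Areg, Hbegf, Tgfa and Btc, and Errfi1, which encodes an inhibitor of the receptors. They are 10 of 23478 genes in the table, all 10 were found there, and all 10 passed the filter on low counts. Tracheal cells of mouse embryos at day 13.5 were sorted, and their RNA was measured in 6 libraries, 3 from muscle and 3 from epithelium. Per the labels, every embryo was of the genotype Bmp4 f/f; gamma SMA eGFP, that is, floxed Bmp4 alleles together with eGFP that reports gamma smooth muscle actin. No Cre is named in the labels, all 6 libraries are labelled controls, and no treatment separates the groups. GFP marked the muscle cells for collection, and an antibody to surface Epcam marked the epithelial cells, so the groups differ in how they were sorted as well as in tissue. The labels do not say whether a library came from 1 embryo or from a pool, so p-values measure the spread between these libraries, which may in part be technical.

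ErbB receptors are tyrosine kinases of the cell surface that work in pairs. Egfr binds ligands of the epidermal growth factor type, Erbb3 and Erbb4 bind neuregulins, Erbb2 binds no known ligand and serves as the partner of the others, and Erbb3 has little kinase activity of its own and signals through its partner. The ligands are made as membrane proteins and are released by proteases of the ADAM family. In the developing airway, signals of this family act on the growth and differentiation of the epithelium. The comparison of the sorted populations shows which of these genes were measured at a higher level on which side of the tissue boundary.

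The receptor genes were split between the tissues. Egfr was 3.17-fold higher in muscle by the ratio of mean levels, and Erbb3 was 6.66-fold higher in epithelium. The inhibitor gene Errfi1 was 2.80-fold higher in epithelium. By edgeR's quasi-likelihood test with Benjamini-Hochberg adjustment over 19375 genes, these were the 3 members that passed an adjusted p of 0.05, 1 higher in muscle and 2 higher in epithelium. Over all genes tested the same rule called 6.58% higher in muscle and 4.11% higher in epithelium, or 10.7% in either direction. None of the 5 ligand genes among the members passed the threshold in edgeR, although 2 of them, Hbegf and Btc, had an unadjusted p under 0.05 (0.048 and 0.012), as did Erbb2 (0.016). DESeq2 gave 4 of the 5 an adjusted p and called 1, Btc, and limma-voom called none of the 5.

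**Figure D1:**
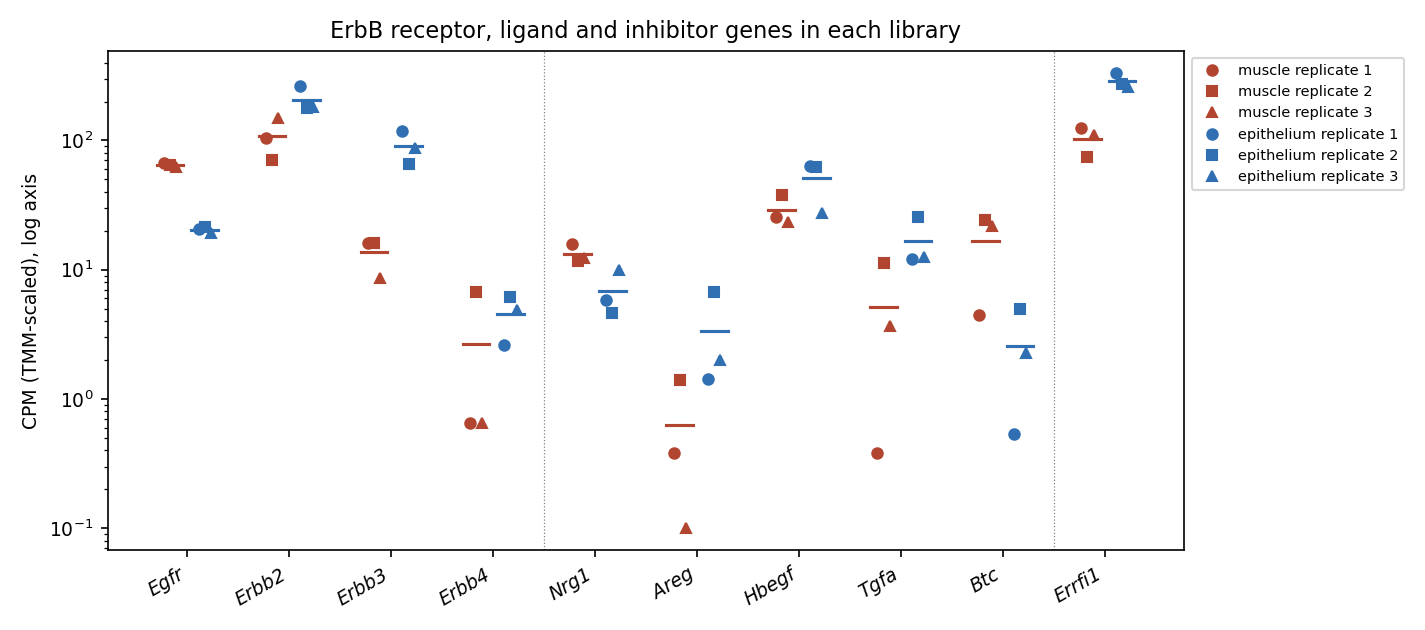
Level of each of the 10 genes in each library, in CPM (counts scaled to library size), on a log axis; symbols are the 3 replicates of muscle (red) and epithelium (blue) and bars are group means. Egfr lies between 62.3 and 66.4 CPM in muscle and between 19.2 and 21.3 in epithelium, while Erbb3 and Errfi1 lie higher in all epithelial libraries.

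Levels are given as CPM (counts per 1e6 counts of the library), computed from the deposited counts after TMM scaling of the library totals (a trimmed mean of log ratios between libraries). Total counts ranged from 11847432 to 54848820 per library. The sort was reflected in the genes used for it: in muscle Epcam had 1.53 ± 0.80 CPM (SD, n = 3), against 598 ± 96.9 in epithelium, and Actg2, gamma smooth muscle actin, had 1876 ± 1287 against 2.17 ± 0.50. All 9 smooth muscle markers were higher in muscle and all 10 epithelial markers higher in epithelium. Of the markers of endothelium, cartilage and skeletal muscle 1 gene in each list was higher in muscle (edgeR). Of 10 neuronal markers 2 were higher in epithelium, and no erythroid, immune or mesothelial marker passed the threshold. Only 4 of the 8 erythroid markers were tested. The globin genes Hba-a1, Hba-a2, Hbb-bt and Hbb-bs had 3 counts or fewer in every library and could not pass. The skeletal muscle markers summed to 294 to 1152 CPM in muscle and 1.39 to 175 in epithelium. Cartilage markers summed to 442 to 847 CPM in muscle and 193 to 354 in epithelium, and endothelial markers to 75.6 to 107 and 14.3 to 75.6. The part of these cell types in the results was not tested. Muscle replicate 2 and epithelium replicates 2 and 3 had counts in 73.4%, 74.7% and 78.8% of 1449 olfactory and vomeronasal receptor genes, which belong to sensory neurons, against 2.90% to 17.4% in the other libraries. These are referred to as background counts. Their 95th percentile by library total was 0.127, 2.18 and 0.081 CPM in muscle replicates 1 to 3. In epithelium replicates 1 to 3 it was 0, 4.44 and 1.47 CPM, so it was a low bar in some libraries. Each member was above the percentile of its own library, except Areg in muscle replicates 2 and 3. Areg was below it in muscle replicate 2 and level with it in muscle replicate 3 (0.081 CPM). In sorted bulk samples, fewer cells of a type and less RNA per cell cannot be told apart.

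Egfr had 66.4, 64.8 and 62.3 CPM in muscle replicates 1 to 3 and 20.5, 21.3 and 19.2 CPM in epithelium replicates 1 to 3. The groups did not overlap. After TMM scaling the libraries within each group lay close together, with means of 64.5 ± 2.03 and 20.4 ± 1.06 (SD, n = 3). By library total they lay further apart, with 55.6 and 73.4 CPM in muscle replicates 1 and 2. In epithelium replicates 1 and 2 the level by library total was 20.1 and 26.9 CPM, and the groups did not overlap on that scale either. The log2 fold change of muscle over epithelium was 1.66 ± 0.21 (SE, adjusted p = 0.0015, edgeR). It passed the threshold in all 20 alternative fits, with log2 fold changes from 1.41 to 1.70. Egfr lies on chromosome 11 from 16752203 to 16918158 (GENCODE M21, GRCm38, the build called mm10).

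Erbb3, the neuregulin receptor that depends on a partner, had 16, 16.1 and 8.62 CPM in muscle and 118, 65.4 and 87.9 CPM in epithelium. Its lowest epithelial library was thus above its highest muscle library. Its log2 fold change, -2.74 ± 0.34 (SE), had an adjusted p of 0.0015 (edgeR) and passed the threshold in all 20 alternative fits. Without the 3 libraries with the most background counts it was -3.45 (adjusted p = 0.0029), a fold over 1.5 times that of the full set. Erbb3 lies on chromosome 10 from 128567523 to 128589652.

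Erbb3 is also a gene of the Schwann cell lineage, and the markers of that lineage were read beside it. Of 9 markers of Schwann cell precursors and glia, 8 were tested, none was higher in muscle and 1, Mbp, was higher in epithelium. Their summed level was 16.2 to 42.9 CPM in muscle and 183 to 219 in epithelium, and without Mbp it was 15.1 to 38.6 and 12.8 to 41.3. Mbp was set aside after its values were seen. Sox10, a defining transcription factor gene of the lineage, had 2.60, 10.4 and 3.12 CPM in epithelium and overlapped the muscle libraries. Foxd3 was at 0.526 CPM or less in every library. The part of cells of this lineage in the difference of Erbb3 was not tested.

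Erbb2, the shared partner, was the receptor gene with the highest level in both tissues. It had 104, 70.6 and 149 CPM in muscle and 262, 178 and 181 in epithelium. Muscle and epithelium did not overlap, yet the log2 fold change of -0.94 ± 0.32 (SE) did not pass the threshold (adjusted p = 0.11, edgeR). It passed in 9 of the 20 alternative fits, all with higher levels in epithelium, among them library size only, DESeq2 (adjusted p = 0.0014) and the fit without the 3 libraries with the most background counts (adjusted p = 0.025). Over all 20 the adjusted p ranged from 0.0014 to 0.34. Some exon bases of Erbb2 are shared with Mien1 on the opposite strand, and the libraries keep no strand in standard use. Mien1 had 36.4 to 52.0 CPM in muscle and 56.9 to 66.9 in epithelium, and how its reads were divided from those of Erbb2 is not given in the sources used here.

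Erbb4, the remaining neuregulin receptor gene, was low. It had 0.646, 6.74 and 0.657 CPM in muscle and 2.60, 6.15 and 4.92 in epithelium. The library with the most was muscle replicate 2, which also had the most background counts among the muscle libraries; the part of background counts in this value was not tested. With -0.77 ± 1.13 (SE) on the log2 scale, the error was larger than the difference (adjusted p = 0.88, edgeR). Without muscle replicate 2 it was -2.79 (adjusted p = 0.15), so that library sets the size but does not decide a call.

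To compare levels between genes, CPM was divided by the length of all annotated exons in kilobases (kb). In muscle the order of the receptor genes was Erbb2 with 20.7 ± 7.52 CPM per kb (SD, n = 3), Egfr with 5.69 ± 0.18, Erbb3 with 2.26 ± 0.71 and Erbb4 with 0.217 ± 0.284. In epithelium it was Erbb2 with 39.7 ± 9.10 CPM per kb, Erbb3 with 15.0 ± 4.41, Egfr with 1.80 ± 0.09 and Erbb4 with 0.369 ± 0.146. No neighbours in either order overlapped between libraries. Egfr and Erbb3 thus held the second and the third place in opposite order in the tissues. The level of Erbb3 per kb was 0.26 to 0.467 times that of Egfr in the muscle libraries and 5.77 to 10.8 times that of Egfr in the epithelial libraries.

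As a share of the summed level of the 4 receptor genes per kb, Erbb2 made up 70.2% ± 10 of the muscle sum (SD, n = 3) and 69.8% ± 2.26 of the epithelial sum. Its share ranged from 60.3% to 80.3% over the muscle libraries, a range that holds all epithelial values. Egfr made up 20.5% ± 4.97 in muscle and 3.26% ± 0.73 in epithelium, and Erbb3 8.42% ± 4.01 and 26.2% ± 2.90. The summed level of the 4 genes was 28.5, 22.5 and 35.5 CPM per kb in muscle and 71.9, 47.4 and 51.5 in epithelium. With the longest annotated transcript as the length, Erbb2 made up 69.5% and 70.4%, Egfr 21.6% and 3.51%, and Erbb3 8.01% and 25.4%. Shares within a library are not independent of each other, and they are given as a description.

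**Figure D2:**
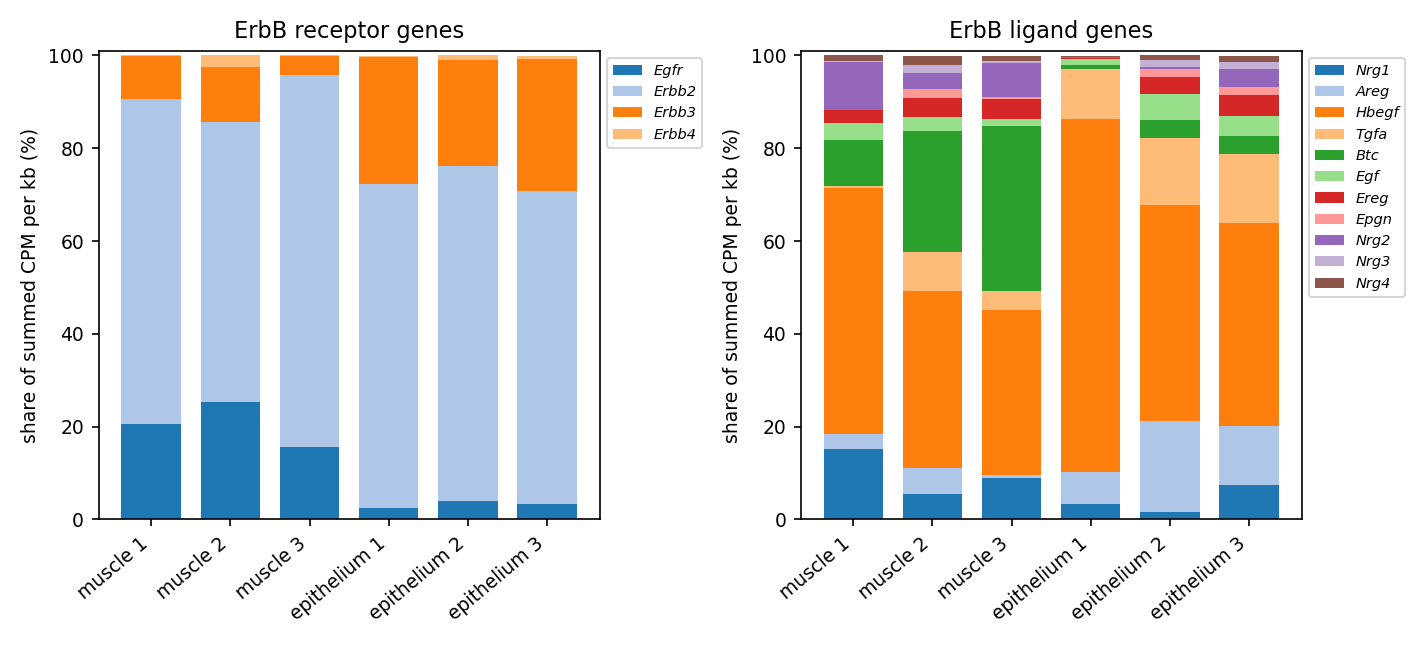
Share of each gene in the summed CPM per kb of exon of the 4 receptor genes (left) and of 11 ligand genes (right), in percent, with 1 bar per library. Erbb2 fills 60.3% to 80.3% of every receptor bar, Egfr is wider in the muscle bars and Erbb3 in the epithelial bars, and Hbegf is the widest part of every ligand bar, by the least in muscle replicate 3 (35.6% against 35.5% of Btc).

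Errfi1 encodes an adaptor, also known as Mig6, that binds active ErbB kinases and holds them back, and its transcript is itself induced by growth factor signals. It had 124, 74.7 and 111 CPM in muscle and 330, 275 and 260 CPM in epithelium. All epithelial libraries were above all muscle libraries, with means of 288 ± 37.0 and 103 ± 25.4 (SD, n = 3). On the log2 scale the difference was -1.48 ± 0.27 (SE), with an adjusted p of 0.0080 (edgeR), and the threshold was passed in all 20 alternative fits, with log2 fold changes from -1.77 to -1.29. The level of Errfi1 per kb was 3.64 to 5.90 times that of Egfr in the muscle libraries and 40.7 to 50.8 times that of Egfr in the epithelial libraries.

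Genes of the response to cell dissociation, which like Errfi1 are induced within a short time, were read beside it. Of 20 such genes, 4 were higher in epithelium (Egr1, Ier2, Nr4a1 and Klf6), 2 were higher in muscle (Socs3 and Gadd45b) and the others did not pass the threshold. Their summed level was 11004 to 28310 CPM in muscle and 29165 to 36223 in epithelium, without overlap. A large part of that sum was Egr1, with 1311, 1403 and 3988 CPM in muscle and 6087, 9686 and 9020 in epithelium. The sum without Egr1 was not computed, so the separation is not shown for the list as a whole. Fos itself averaged 4345 ± 2196 CPM over the muscle libraries (SD, n = 3) and 4201 ± 1096 over the epithelial ones. The part of this response in the difference of Errfi1 was not tested.

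The stretches before the start sites of Egfr and Errfi1 are shown because these genes passed the threshold in opposite directions and Errfi1 has 2 annotated starts, whose use a count per gene cannot separate. The sequences are from RefSeq (GRCm38.p6), 250 bases up to the start, read 5′ to 3′ on the strand of the gene, and capitals mark matches to the motifs searched. The Egfr stretch is chr11:16751953-16752202 on the plus strand, and those of Errfi1 are chr4:150853546-150853795 for the first start and chr4:150854820-150855069 for the second, both on the plus strand.
Egfr: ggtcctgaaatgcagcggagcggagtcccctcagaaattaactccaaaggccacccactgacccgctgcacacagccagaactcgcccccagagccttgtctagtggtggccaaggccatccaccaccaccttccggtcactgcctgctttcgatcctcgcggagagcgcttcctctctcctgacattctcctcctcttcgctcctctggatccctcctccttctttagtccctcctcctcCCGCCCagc
Errfi1 first start: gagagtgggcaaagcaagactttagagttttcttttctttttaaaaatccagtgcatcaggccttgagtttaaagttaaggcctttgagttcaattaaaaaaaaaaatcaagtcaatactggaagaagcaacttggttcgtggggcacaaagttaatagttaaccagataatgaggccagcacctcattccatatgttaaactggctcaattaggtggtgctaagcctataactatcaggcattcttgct
Errfi1 second start: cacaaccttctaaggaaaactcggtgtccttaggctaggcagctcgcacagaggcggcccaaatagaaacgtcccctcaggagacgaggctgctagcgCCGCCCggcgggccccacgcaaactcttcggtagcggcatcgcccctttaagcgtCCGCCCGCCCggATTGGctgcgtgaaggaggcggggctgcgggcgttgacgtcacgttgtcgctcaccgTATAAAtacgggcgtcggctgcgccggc
The motifs searched on both strands were the TATA box (TATAAA), the CCAAT box (CCAAT), the GC box (GGGCGG), an AP-2 site (GCCNNNGGC), a Grainyhead-like site (AACCNGTT), an AP-1 site (TGANTCA) and the CArG box by its name. The Egfr stretch held 1 GC box, whose first base lies 9 bases before the start, and none of the others. The first Errfi1 stretch held none of the 7. The second Errfi1 stretch held a TATA box 28 bases before the start, a CCAAT box 85 bases before it and GC boxes at 152, 97 and 93 bases, the latter pair overlapping. Of 32851 promoters of the same length, 12.4% held a TATA box, 33.8% a CCAAT box, 32.7% a GC box, 13.7% the AP-2 site, 1.79% the Grainyhead-like site, 6.75% the AP-1 site and 1.47% a CArG box. The stretches held 60.8%, 38.0% and 64.8% G and C, against a median of 52.4% over all promoters. A match describes the letters and shows no binding.

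The ligand genes had lower levels per kb than Erbb2 in every library, and their libraries spread widely. Hbegf, a heparin-binding ligand of Egfr and Erbb4, had the highest mean level per kb of the 11 ligand genes in both tissues, 5.99 ± 1.63 CPM per kb (SD, n = 3) in muscle and 10.6 ± 4.24 in epithelium. It had 25.7, 37.9 and 23.2 CPM in muscle and 63.2, 62.6 and 27.4 in epithelium. Epithelium replicate 3 fell among the muscle libraries, so the groups overlapped. The log2 fold change of -0.82 ± 0.36 (SE) did not pass the threshold (adjusted p = 0.22, edgeR). It passed in 1 of the 20 alternative fits, without the 3 libraries with the most background counts (-1.55, adjusted p = 0.020), a fit in which epithelium has 1 library.

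Btc, betacellulin, which binds Egfr and Erbb4, had the largest fitted change toward muscle among the ligand genes. It had 4.45, 24.4 and 21.7 CPM in muscle and 0.539, 4.95 and 2.25 in epithelium. Muscle replicate 1 lay below epithelium replicate 2, so the groups overlapped. A log2 difference of 2.73 ± 0.87 (SE) did not pass the threshold (adjusted p = 0.087, edgeR). It did pass in 6 of the 20 alternative fits, among them DESeq2 (adjusted p = 0.029), without muscle replicate 1 (3.20, adjusted p = 0.040) and without epithelium replicate 2 (3.64, adjusted p = 0.040). The fit with the background covariate also passed (3.49, adjusted p = 0.0083, edgeR). Muscle replicate 2 and epithelium replicate 2 had the highest level of Btc and of background counts in their tissues. The part of background counts in these values was not tested.

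Tgfa, transforming growth factor alpha, a ligand of Egfr, had 0.380, 11.3 and 3.67 CPM in muscle and 12.1, 25.8 and 12.5 in epithelium. After TMM scaling every epithelial library was above every muscle library, and the muscle libraries differed among themselves by a larger fold than the group means did. By library total the groups overlapped, with 12.8 CPM in muscle replicate 2 and 11.9 in epithelium replicate 1. Tgfa had a log2 difference of -1.72 ± 0.91 (SE) and an adjusted p of 0.35 (edgeR), and it passed in 1 of the 20 alternative fits (adjusted p = 0.049), that with the replicate number as a block and a covariate for background counts. Without muscle replicate 2 the log2 difference of Tgfa was -3.02 (adjusted p = 0.061). Areg, amphiregulin, another ligand of Egfr, had 0.380, 1.40 and 0.101 CPM in muscle and 1.43, 6.68 and 1.99 in epithelium. Its groups did not overlap after TMM scaling, but the counts were few, from 4 to 28 in the muscle libraries. By library total the groups overlapped, with 1.58 CPM in muscle replicate 2 and 1.40 in epithelium replicate 1. The log2 fold change of -2.43 ± 1.52 (SE) did not pass the threshold (adjusted p = 0.47, edgeR), and it did not pass in any of the 18 alternative fits that gave a value. Without muscle replicate 2 the log2 fold change of Areg was -3.78 (adjusted p = 0.17), and without epithelium replicate 2 it was -1.42 (adjusted p = 0.97). In both genes the library with the most background counts of its group had the highest level, and the part of background counts in these values was not tested.

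Nrg1, neuregulin 1, the ligand of Erbb3 and Erbb4, had 15.7, 11.6 and 12.4 CPM in muscle and 5.84, 4.61 and 10 in epithelium. After TMM scaling all muscle libraries were above all epithelial libraries, with means of 13.2 ± 2.20 and 6.83 ± 2.84 (SD, n = 3). By library total the groups overlapped, with 9.93 CPM in muscle replicate 3 and 10.6 in epithelium replicate 3. The log2 difference of Nrg1, 0.95 ± 0.42 (SE), missed the threshold (adjusted p = 0.23, edgeR), as it did in each of the 20 alternative fits. The gene spans 1069479 bases with 18 annotated transcripts, whose forms a count per gene does not separate. The direction of Nrg1 was thus opposite to that of its receptor gene Erbb3, with only the latter past the threshold.

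**Figure D3:**
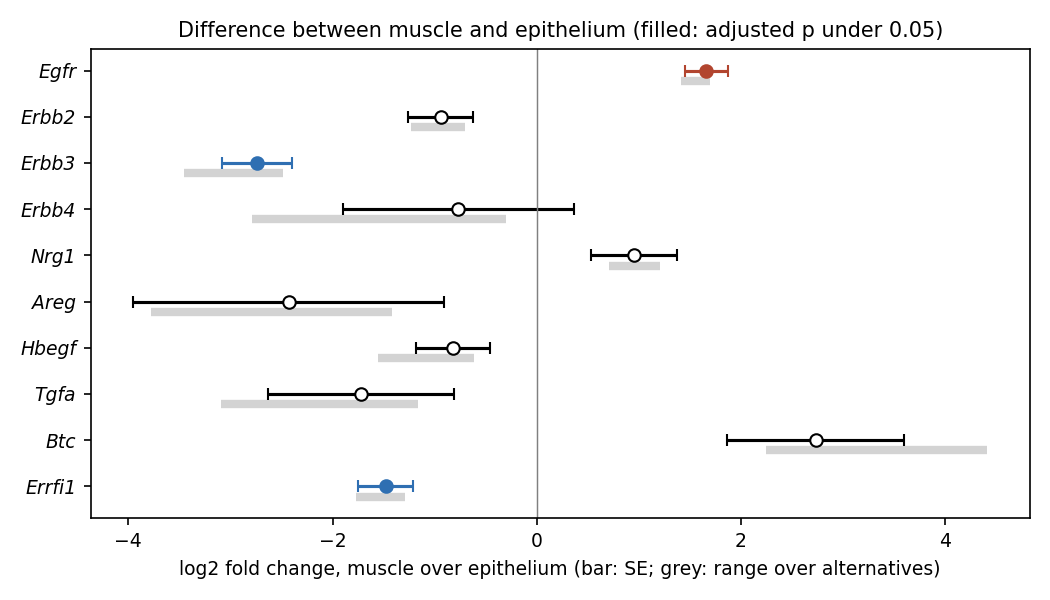
Log2 fold change of muscle over epithelium for each gene, with the standard error as a bar; filled points passed an adjusted p of 0.05, and the grey band under each point spans the values over the alternative fits. Only Egfr, Erbb3 and Errfi1 are filled, and no grey band crosses 0.

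After TMM scaling the groups did not overlap in 7 of the 10 members. Of these, 2 had higher levels in muscle (Egfr and Nrg1) and 5 in epithelium (Erbb2, Erbb3, Areg, Tgfa and Errfi1). By library total, without TMM scaling, the groups of Nrg1, Areg and Tgfa overlapped. Over all genes tested, 26.9% did not overlap after TMM scaling, 16.4% with higher levels in muscle and 10.5% with higher levels in epithelium. The median log2 fold change of the members was -0.88, against -0.10 over all genes tested. With library size only, the median over all genes was -0.33. No member changed direction under any scaling or other alternative.

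The remaining ligand genes of the family were Egf, Ereg, Epgn, Nrg2, Nrg3 and Nrg4, all at a mean of 9.06 CPM or less in both tissues, and none of the 6 passed the threshold or had an unadjusted p under 0.05 (edgeR). Limma-voom called none of the 6. DESeq2 gave an adjusted p to 1 of them, Egf, which it did not call, and none to the other 5. Without the 3 libraries with the most background counts Nrg2 passed (4.22, adjusted p = 0.035), with 1 epithelial library left. Nrg2 had 3.27, 2.20 and 3.16 CPM in muscle and 0.149, 0.334 and 1.58 in epithelium. It was the 1 gene of the 6 that was higher in muscle without overlap (log2 fold change 2.06 ± 1.48, SE, adjusted p = 0.57). Of the summed level of all 11 ligand genes per kb, the muscle share of Hbegf was 42.2% ± 9.39 (SD, n = 3) and its epithelial share 55.5% ± 18, and the shares of Btc were 23.9% ± 13 and 2.82% ± 1.84. Tgfa made up 4.40% ± 3.94 and 13.3% ± 2.13, and Areg 3.11% ± 2.49 and 13.1% ± 6.45. With the longest annotated transcript as the length, Hbegf made up 46.9% in muscle and 59.4% in epithelium, and Btc 18.3% and 2.08%. Tgfa then made up 4.32% and 12.4%, and Areg 2.07% and 8.55%. On that basis Hbegf had 41.6% and Btc 27.8% in muscle replicate 3.

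Areg and Btc stand with Ereg and Epgn in a cluster of 4 ligand genes within 376 kb of chromosome 5. Epgn starts the cluster at 91027464, followed by Ereg at 91074622, Areg at 91139599 and, on the opposite strand, Btc from 91357261 to 91402994. The log2 fold change was 2.73 in Btc, 0.09 in Ereg, -0.74 in Epgn and -2.43 in Areg. Btc and Areg kept opposite signs in every alternative fit that gave them a value, while Ereg was negative in 5 of 18 such fits (-0.47 to 5.24) and Epgn positive in 3 of 16 (-2.98 to 0.79). None of the 4 passed the threshold, and the errors of Ereg (1.52) and Epgn (2.53) exceeded their differences.

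Other genes of the pathway were read from lists by role, 105 genes in all. The test called 11 of them higher in muscle and 10 higher in epithelium, and 84 did not pass. The calls are 20% of the 105, against 10.7% over all genes tested, which were not matched to them for level. A fit limited to an average log2 CPM of at least 2 called 2799 genes, and in the main fit 12738 genes reached that level. These counts come from different fits, and the share called at that level in the main fit was not computed. The share called was 25% of the shedding and maturation genes, 66.7% of the receptor partners and 9.52% of the adaptors and effectors. It was 16% of the negative regulators and 30.8% of the ERK-responsive transcripts. The median log2 fold change of the 105 was 0.07, against -0.10 over all genes tested.

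**Figure D4:**
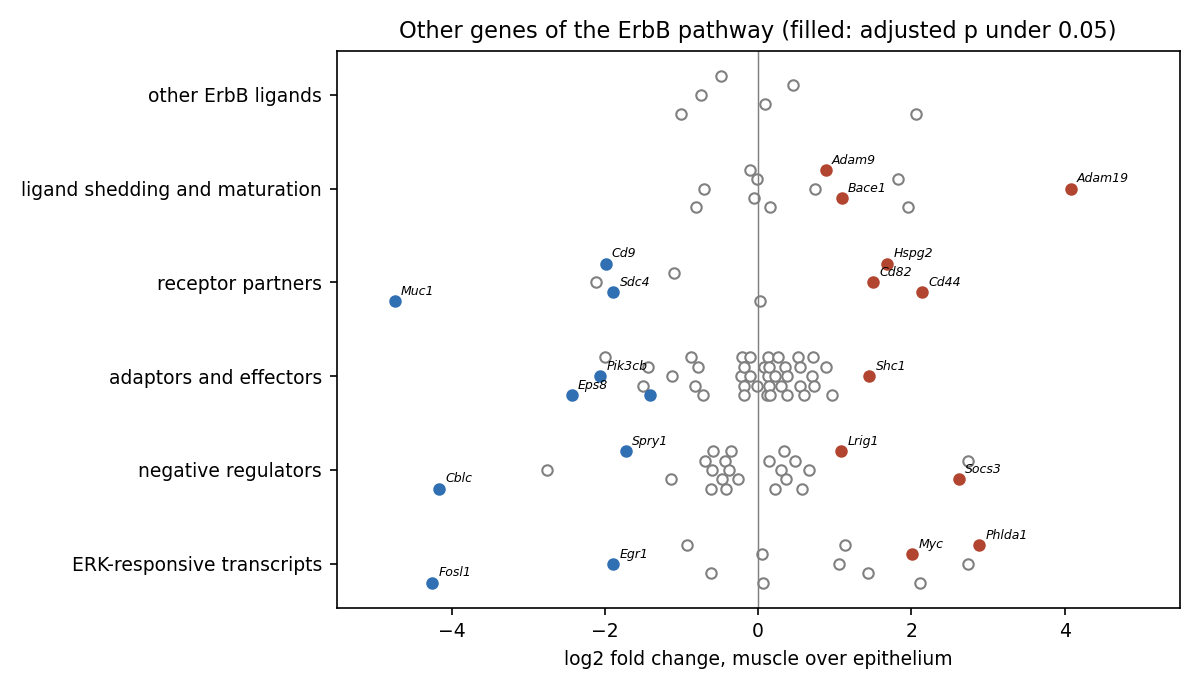
Log2 fold change of muscle over epithelium for the other genes of the pathway, in rows by role, with 1 point per gene in a row. Dusp6 and Spry4 stand both among the negative regulators and among the ERK-responsive transcripts. Filled points passed an adjusted p of 0.05, red when higher in muscle and blue when higher in epithelium. Names mark the filled points that are described here. Most adaptors and effectors lie within 1 unit of 0, while the receptor partners spread from Muc1 at -4.74 to Cd44 at 2.14.

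Of 12 genes of ligand shedding and maturation, 3 were higher in muscle, none in epithelium and 9 did not pass, with a median log2 fold change of 0.45. Adam19, a protease that can release neuregulins, had 195, 95.4 and 163 CPM in muscle and 1.95, 19 and 6.42 in epithelium (log2 fold change 4.08 ± 0.75, SE, adjusted p = 0.0090, edgeR). Without epithelium replicate 3 its adjusted p was 0.061, and without epithelium replicate 2 its log2 fold change was 5.18 (adjusted p = 7.7e-04). Over the 20 alternative fits Adam19 passed in 18 (3.61 to 6.33), and with the block and covariate its adjusted p was 0.37. Bace1 (1.09, adjusted p = 0.035), which also cleaves neuregulin 1, and Adam9 (0.88, adjusted p = 0.048) were higher in muscle. Both calls were kept only without muscle replicate 2 among the 6 fits with 1 library left out, and without epithelium replicate 3 the adjusted p was 0.14 for Bace1 and 0.28 for Adam9. Leaving out muscle replicates 1 or 3, or epithelium replicates 1 or 2, gave adjusted p values of 0.13, 0.14, 0.060 and 0.068 for Bace1 and 0.15, 0.19, 0.10 and 0.11 for Adam9. Of all 20 alternative fits Bace1 passed in 15 and Adam9 in 8. Adam17, the main protease of Tgfa, Areg and Hbegf, had a muscle mean of 91.2 ± 30.7 CPM (SD, n = 3) and an epithelial mean of 94.3 ± 15.1, and Adam10, which releases Btc, had 127 ± 33.4 and 128 ± 8.33. Their log2 fold changes, -0.05 ± 0.29 (SE) and -0.02 ± 0.26, were smaller than their errors.

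Of 9 genes of receptor partners, such as surface mucins, tetraspanins and heparan sulfate carriers, 3 were higher in muscle, 3 in epithelium and 3 did not pass, with a median log2 fold change of -1.10. Muc1, a mucin of the apical membrane, had 1.44, 3.84 and 2.30 CPM in muscle and 79.8, 31.9 and 89.4 in epithelium (log2 fold change -4.74 ± 0.52, SE, adjusted p = 8.5e-04, edgeR). Cd9 (-1.99, adjusted p = 0.012) and Sdc4 (-1.89, adjusted p = 0.0023) were also higher in epithelium. Cd9, a tetraspanin, and Sdc4, a syndecan, passed in all 20 alternative fits, and Muc1 in 19, all but that with the block and covariate (adjusted p = 0.13). In muscle Cd44 (2.14, adjusted p = 0.020), Hspg2 (1.68, adjusted p = 0.020) and Cd82 (1.5, adjusted p = 0.041) were higher. Without epithelium replicate 3 these 3 calls were lost, at an adjusted p of 0.088, 0.10 and 0.15. Without epithelium replicate 2 the log2 fold change of Cd44 was 2.74 (adjusted p = 0.0025). Cd82 lost its call also without muscle replicate 1 (adjusted p = 0.12), muscle replicate 3 (0.11) or epithelium replicate 1 (0.088). Of the 20 alternative fits, Cd44 passed in 16, Hspg2 in 17 and Cd82 in 8, with the highest adjusted p at 0.09, 0.10 and 0.35.

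Of 42 adaptors and effectors, which carry the signal from the receptor to the ERK and AKT kinases, 1 was higher in muscle, 3 in epithelium and 38 did not pass. The calls made up 9.52% of the list, against 10.7% over all genes tested. For 34 of the 42 the log2 fold change lay within 1 unit of 0, and the median was 0.13. The share of all genes within 1 unit of 0 was not computed, so this is a description. Shc1, an adaptor that binds the phosphorylated receptor, had 398, 197 and 370 CPM in muscle and 128, 110 and 115 in epithelium (log2 fold change 1.45 ± 0.30, SE, adjusted p = 0.016, edgeR). When muscle replicates 1 or 3 or epithelium replicate 3 were left out, its adjusted p was 0.064, 0.057 and 0.080. Eps8, an Egfr substrate, had 2.36, 5.14 and 2.53 CPM in muscle and 23.6, 17.8 and 12.5 in epithelium. The difference of -2.43 on the log2 scale (adjusted p = 0.010) passed in all 20 alternative fits. Pik3cb, a catalytic subunit of PI3 kinase, was higher in epithelium (-2.06, adjusted p = 0.039). Its call was lost without muscle replicates 1 (adjusted p = 0.091) or 3 (0.12) or epithelium replicates 2 (0.12) or 3 (0.083), and Pik3cb passed in 11 of the 20 alternative fits. Grb2, the adaptor shared by the receptors, had means of 21.1 ± 0.26 CPM (SD, n = 3) in muscle against 16.5 ± 1.74 in epithelium, 0.35 ± 0.24 on the log2 scale (SE, adjusted p = 0.54).

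Of 25 negative regulators, 2 were higher in muscle, 2 in epithelium and 21 did not pass, with a median log2 fold change of -0.35. Lrig1, a membrane protein that lowers receptor levels, had 30.3, 34.0 and 41.9 CPM in muscle and 19.2, 13.4 and 17.8 in epithelium (log2 fold change 1.08 ± 0.26, SE, adjusted p = 0.028, edgeR). Without muscle replicate 3, epithelium replicate 2 or epithelium replicate 3 its adjusted p was 0.13, 0.081 and 0.14. Lrig1 passed in 14 of the 20 alternative fits, with an adjusted p of up to 0.27. Socs3 (2.62, adjusted p = 0.0051), a cytokine signal inhibitor that is also in the list of the dissociation response, was higher in muscle. Spry1, an inhibitor of ERK signalling by receptor kinases, had 79.7, 45.2 and 70.6 CPM in muscle and 223, 242 and 185 in epithelium (-1.73 on the log2 scale, adjusted p = 0.0048). Socs3 and Spry1 passed in all 20 alternative fits. Cblc, a ubiquitin ligase, was also higher in epithelium (-4.16, adjusted p = 0.045). It kept this call in 1 of the 6 fits with 1 library left out, that without muscle replicate 2 (-7.02, adjusted p = 4.6e-05), and without muscle replicates 1 or 3 or epithelium replicates 1, 2 or 3 the adjusted p was 0.11, 0.11, 0.15, 0.10 and 0.15. In all it passed in 6 of the 20 alternative fits.

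Of 13 transcripts that respond to ERK signalling, 2 were higher in muscle, 2 in epithelium and 9 did not pass, with a median log2 fold change of 1.06. Myc had 152, 140 and 157 CPM in muscle and 47.8, 37.8 and 25.5 in epithelium (log2 fold change 2.01 ± 0.28, SE, adjusted p = 0.0023, edgeR). Phlda1 was also higher in muscle (2.88, adjusted p = 0.0049), and both genes passed in all 20 alternative fits. Egr1 (-1.89, adjusted p = 0.030) and Fosl1 (-4.25, adjusted p = 0.024), both transcription factor genes, were higher in epithelium. Egr1 lost its call without muscle replicate 1 (adjusted p = 0.11) or epithelium replicate 3 (0.066), and Fosl1 without muscle replicate 3 (0.095), epithelium replicate 2 (0.10) or epithelium replicate 3 (0.072). Dusp6 and Spry4, feedback genes of ERK signalling, had log2 fold changes of -0.61 ± 0.23 (SE, adjusted p = 0.14) and 2.74 ± 0.84 (adjusted p = 0.076). Egr1 passed in 15 of the 20 alternative fits, and its call was lost also with the background covariate (adjusted p = 0.09), among the 4 libraries of the later day in the headers (0.1) and without the 3 libraries with the most background counts (0.18). Fosl1 passed in 15 of the 19 that gave a value, and its call was lost also in limma-voom (0.1). The list did not move in 1 direction. Without muscle replicate 3 the log2 fold change of Egr1 was -2.59 (adjusted p = 0.0036), and without muscle replicate 1 that of Fosl1 was -4.87 (adjusted p = 0.046).

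The genes whose levels over the 6 libraries were most like those of each receptor gene and Errfi1 were found among 12738 genes, by the root mean square difference of centred log2 CPM. For Egfr these were Ppp1r18 (0.08), Loxl3 (0.11) and Cmtm7 (0.11). For Erbb3 they were Chd7 (0.19), Sema4d (0.21) and Ap5b1 (0.23). For Errfi1 they were Gramd4 (0.11), Fbxo6 (0.12) and Tprn (0.12). Erbb2 was nearest to Foxj3 (0.08) and Dag1 (0.09), besides a gene of a cytoskeletal protein family at 0.06, and Erbb4 to Pipox (0.23), Cacna1b (0.26) and Tmem51os1 (0.30). With 6 libraries in 2 groups, many genes share such a pattern, and the list is a description.

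In the headers of the table, numbers in the sample identifiers can be read as days, 3 for both replicates numbered 2 and 16 for the other 4 libraries. Among the libraries of day 16 alone, 2 of each tissue, the log2 fold change was 1.62 for Egfr (adjusted p = 0.0045, edgeR), -3.14 for Erbb3 (0.0038) and -1.41 for Errfi1 (0.0050). These are the 3 members that passed there too. Day 3 holds 1 library per tissue and allowed no test.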

How the data were processed

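RNA was measured in 3 muscle and 3 epithelial libraries made, per the labels' protocols, with the SMART-Seq kit and Nextera XT, which carry no molecular identifiers. The authors deposited whole-number counts per gene symbol; per the submitters' processing notes the tools were Trim Galore, Bowtie2, Cufflinks and DESeq and the build mm10, with no roles or versions. The counting program, annotation and filters are not given in the sources used here. Even numbers made up 73.8% to 79.6% of the counts from 1 to 19 in each library.

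Counts were filtered with filterByExpr, scaled by TMM and tested in R 4.3.3 by the robust quasi-likelihood F-test in edgeR 4.0.16 without covariates, adjusted over 19375 genes at 0.05. Standard errors derive from the test statistic. DESeq2 1.42.0, limma 3.58.1 (voom), other scalings and filters, covariates, the replicate block and left-out libraries were alternatives. The test was checked on simulated counts with the same dispersion (spread between libraries) in every gene and no differences in background counts between libraries. That check does not cover the spread and background of the libraries used here. Exon lengths came from GENCODE M21 (GRCm38) and promoters from RefSeq, where 7 of the 10 members were matched by symbol. An exact two-sided permutation test of 3 libraries against 3 cannot give a p under 0.10. The genes followed and all lists were chosen with earlier results of these data known. Genes named from each list were up to 3 per direction with the largest change whose average log2 CPM was 2 or more, past the threshold and without overlap. Others are named for their role. Hras was found under its older symbol Hras1. Some genes of the lists are counted but not reported here by name.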

Additional observations from a re-analysis of the deposited data

How the results depend on the processing

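Egfr, Erbb3 and Errfi1 kept their direction and passed the threshold in all 20 alternative fits. No member reversed in any fit that gave it a value. The members higher in muscle numbered 2 with DESeq2, with the background covariate, with the replicate block and with both of the latter, the added gene being Btc each time, and 1 or 2 when a library was left out. Those higher in epithelium numbered 4 with the block and covariate and 4 without the 3 libraries with the most background counts, and 2 in each fit that left out a library. With DESeq2 size factors in edgeR, library size only, upper-quartile scaling or the filter at an average log2 CPM of 2 they numbered 3. They also numbered 3 with DESeq2, with the header day as a term and with the background covariate. The added gene was Erbb2 each time. The count of all genes called was 2071. It was 3539 with DESeq2, 3178 with the header day as a term, 983 at an adjusted p under 0.01 and from 1169 (without epithelium replicate 3) to 2573 (without muscle replicate 2) with a library left out. Without muscle replicate 1 it was 1323. With the replicate block 2418 genes were called, 1744 of them among the 2071, and no call of a member was lost. Of the pathway genes named, Hspg2 (adjusted p = 0.073), Adam9 (0.053), Cd82 (0.14) and Cblc (0.058) lost their calls with the block. Deviations from the group means correlated at 0.59, 0.73 and -0.57 for the libraries numbered 1, 2 and 3, and not every sample correlated best with its own. In the headers the libraries numbered 1 share an identifier across the tissues, as do those numbered 2, but not those numbered 3, and no source used here says what it marks, so the numbers were not taken to pair all samples. The fit without the 3 libraries leaves 1 epithelial library, assumed to vary like the muscle ones. Erbb4 and Areg fell below the filter at an average log2 CPM of 2, and Areg had no adjusted p in DESeq2. The causes of these changes were not tested.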

Other observations

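Mbp, a myelin gene among the glial markers, is singled out after its values were seen. It had 1.79, 4.24 and 1.16 CPM in muscle and 170, 178 and 182 CPM in epithelium, -6.24 ± 0.51 on the log2 scale (SE, adjusted p = 2.3e-04, edgeR).

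The neuronal markers that were higher in epithelium were Isl1 (log2 fold change -2.03, adjusted p = 0.031, edgeR) and Uchl1 (-2.04, adjusted p = 0.0029). Stmn2, another neuronal marker, had 12.6, 16.4 and 13.5 CPM in muscle and 4.76, 8.15 and 1.8 CPM in epithelium, without overlap, and did not pass the threshold (1.53, adjusted p = 0.13). Tubb3 had groups that overlapped (-1.27, adjusted p = 0.47).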
